A study of Mus musculus with 4 samples.

Results

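The nuclear oxidative phosphorylation (OXPHOS) genes are the genes on nuclear chromosomes that encode protein subunits of the respiratory chain and of ATP synthase. They were taken by gene symbol, as every listed gene whose name begins as the subunits of complexes I to V do (Nduf with a letter and a number, Sdha to Sdhd, Uqcr, Cyc1, Cox4 to Cox8 and Atp5) and that is neither a pseudogene nor mitochondrial. The name pattern matched 88 of the 40999 listed features, and 84 members were left after 4 pseudogene entries were removed. The name pattern uses no measured value. The members lay on 19 chromosomes, 3 of them on the X chromosome (Ndufa1, Ndufb11 and Cox7b).

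Gonads of wild-type C57BL/6J mouse embryos were profiled with SEQuoia complete stranded RNA-seq, in which ribosomal RNA (rRNA) is depleted, a poly(A) tail is added to all remaining RNA and molecules carry unique molecular identifiers (UMIs). There were 4 groups, 1 for each embryonic day (E) between E11.5 and E14.5, each a single library made from 1 pool of total RNA, so no difference between time points has a replicate check and no p-value is given. Each pool joined XX and XY gonads, at least 6 of each sex from 2 litters, so levels are averages over both sexes. At E11.5 the whole genital ridge with the mesonephros was taken, and from E12.5 on the gonad alone, so that at E12.5 versus E11.5 time and dissection cannot be told apart. No group carried a transgene or received a treatment.

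In oxidative phosphorylation, complexes I (NADH dehydrogenase) and II (succinate dehydrogenase) pass electrons to coenzyme Q, complex III (cytochrome bc1) passes them on to cytochrome c, and complex IV (cytochrome c oxidase) gives them to oxygen. Complexes I, III and IV pump protons, and complex V (ATP synthase) uses the gradient to make ATP. Complex II is built from nuclear genes alone, whereas the other 4 combine nuclear subunits with a few encoded by mitochondrial DNA, which were not analysed here. Several subunits of complex IV exist as a ubiquitous isoform and as one restricted to muscle, testis or other tissues.

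By complex, 35 members belonged to complex I, 4 to complex II, 9 to complex III, 19 to complex IV and 15 to complex V, and 2 (Atp5s and Atp5sl) are named for complex V but are not counted among its subunits. Ndufa4, named for complex I, was placed with complex IV, where its protein resides. A mean of at least 1 CPM (counts of a gene relative to the library's total, in the usual counts-per-million unit) over the 4 libraries was reached by 79 of the 84 members, and by 15897 of all features. The 5 members below it were all tissue-restricted isoforms of complex IV, namely Cox4i2, Cox6a2, Cox7b2, Cox8b and Cox8c.

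The libraries held 25593453 to 31752562 deduplicated counts. In the E14.5 library 40.7% of the counts came from Rn18s-rs5, the 18S rRNA gene, against 9.06% at E11.5, 1.31% at E12.5 and 1.03% at E13.5, so levels between libraries are given as scaled CPM, that is CPM after TMM scaling (trimmed mean of M-values), and TPM (the transcripts-per-million unit), which corrects for gene length, serves only to compare genes within a library. Summed scaled CPM of markers fixed for each cell type was 687 to 1072 for gonadal somatic cells, 5 of 5 listed. The same sum went from 19.8 at E11.5 to 297, 378 and 307 for 7 germ cell markers, from 86.4 to 556, 476 and 521 for 5 Sertoli cell markers, and from 12.9 to 163, 678 and 1125 for 5 Leydig cell markers, of which Insl3 was at 0 at E11.5. For 7 mesonephric markers it was 143 at E11.5 and 48.6 to 55.6 later, for 4 listed macrophage markers 50.8 and 22.8 to 30.1, for 5 pregranulosa markers 121 and 172 to 227, for 5 endothelial markers 354 and 240 to 335, and for 9 erythroid markers 2064 and 3324 to 3584. Of the 7 mesonephric markers, 5 were at least 1.3-fold lower at E12.5 than at E11.5. Pax2 went from 44.8 to 1.90 and Six2 from 29.4 to 0.317. The other 2 were higher, Gdnf going from 11.4 to 31.1 and Lhx1 from 6.12 to 9.48. Gdnf alone held 31.1 of the sum of 55.6 at E12.5. Marker sums thus differed between the libraries of every comparison below, and their part in the members' values was not tested. In pooled tissue, fewer cells of a type and less RNA per cell cannot be told apart.

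The OXPHOS members were expressed well above the typical gene and as a block took a nearly constant part of the scaled RNA. They held 0.417%, 0.484%, 0.473% and 0.226% of the raw counts, in order of time, which is the order used wherever 4 values follow each other. Relative to the TMM-scaled library size the same shares were 0.382%, 0.393%, 0.379% and 0.379%. The E14.5 library was thus low in the first measure and level with the others in the second. The median scaled CPM over the 79 members kept was 35.9, 36.4, 34.3 and 34.3.

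Within each library the median TPM of the members kept was 60.7, 73.8, 77.6 and 28.1, against 9.38, 11.8, 13.2 and 4.24 for all features kept. Between 91.9% and 92.4% of all kept features lay below the members' median. Atp5b, which encodes the catalytic beta subunit of ATP synthase, had the highest TPM among the members in every library, at 333.9, 478.6, 478.2 and 141.7. Next in TPM averaged over the libraries came Atp5g3, a gene for the rotating c-ring of ATP synthase, then Cox7c, the alpha subunit gene Atp5a1, and Cox4i1. The member kept with the lowest TPM was Cox7a1 at E11.5, at 2.71, and Atp5s in the other 3 libraries, at 5.46, 6.13 and 2.15. TPM divides by the exon length of the annotation, which was 2661 bases for Ndufa11 and 2343 for Ndufa13 against 414 for Atp5e, so at equal counts a gene with longer annotated exons has a lower TPM.

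**Figure D1:**
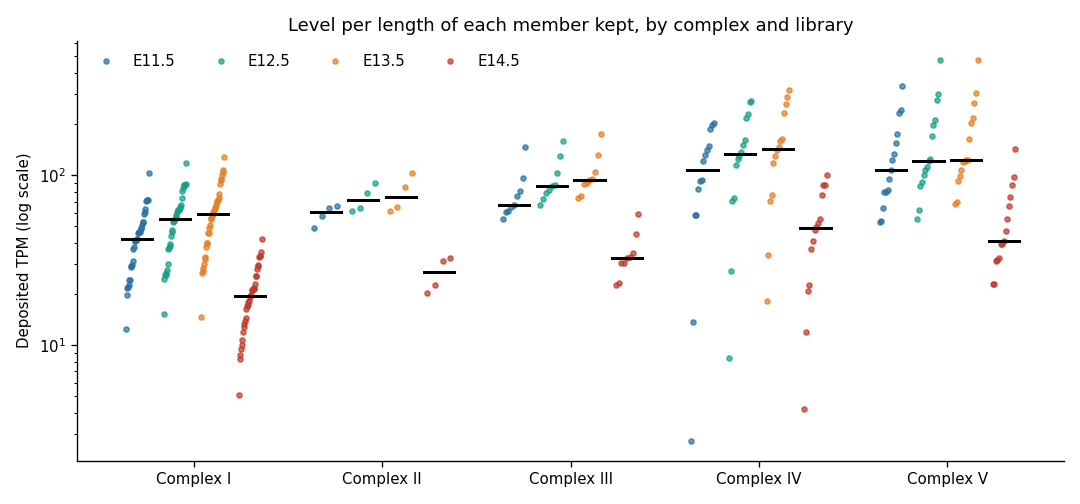
Deposited TPM (log axis) of each member kept, grouped by complex, with 1 column of points per library and a black bar at the median of the complex. At E11.5 the median was 42.3 for complex I and 106.8 for complex V, of which all members were kept. All 5 complexes sit lower in the E14.5 library, in which 40.7% of the counts were Rn18s-rs5.

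The 5 complexes divided the members' summed TPM in nearly the same way at each time point. Complex V held the most, 33.1%, 32.8%, 31.6% and 31.2%. Complexes I and IV followed closely, complex I with 25.7%, 25.6%, 26.3% and 26.6% and complex IV with 25.4%, 26.1%, 26.7% and 26.2%. Complex III held 11.4% to 11.7% and complex II 3.87% to 4.03%, and the 2 genes that are not subunits 0.195% to 0.223%. Per member, the mean TPM of complex I was well below that of complex V, 44.5 against 133.9 at E11.5 and 60.7 against 170.5 at E13.5, so complex I reached its share through its many genes. The lower share of complex V in the later libraries has no replicate to set it against.

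Most members differed little between libraries. For each gene the range was taken as the highest over the lowest scaled level in the 4 libraries. Its median was 1.14-fold over the 79 members kept and 1.37-fold over all 15897 features kept. A range under 1.3-fold was found for 70 members (88.6%) and 41.5% of all features, and one under 2-fold for 78 members (98.7%) and 77.9%. Well-counted genes vary less from counting alone, so the same was computed over features with a mean CPM of at least 10, where 69 of 75 members (92.0%) and 54.9% of 10198 features stayed under 1.3-fold. The steadiest member was Ndufa13, an accessory subunit of complex I, with scaled CPM of 30.0, 30.4, 30.1 and 30.8. Uqcrc2, a core protein of complex III, was almost as level at 67.5, 66.8, 66.5 and 65.3.

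The 9 members with a range of at least 1.3-fold were Cox7a1 at 4.88-fold, Cox6b2 at 1.998-fold, Ndufb4 at 1.48-fold, Atp5g1 at 1.36-fold, Atp5k at 1.35-fold, Atp5sl at 1.34-fold, Ndufs5 and Ndufb2 at 1.32-fold and Ndufa6 at 1.31-fold. The first pair are tissue-restricted isoforms of complex IV and are described with their ubiquitous partners further on. All 4 members of complex II and all 9 of complex III lay under 1.3-fold.

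**Figure D2:**
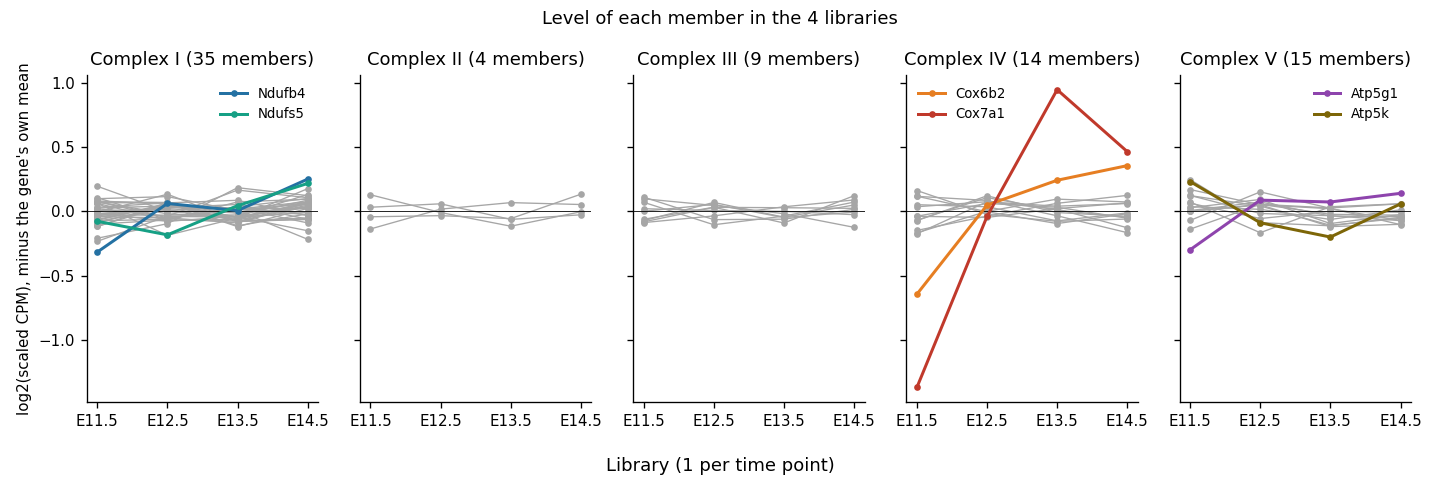
Level of each of the 77 subunit genes kept in the 4 libraries, as log2 scaled CPM minus the gene's own mean, in 1 panel per complex. Grey lines are single members and coloured lines are named ones. Nearly all lines stay close to 0, while Cox7a1 spans a 4.88-fold range and Cox6b2 a 1.998-fold range.

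Because there is 1 library per time point, a member is counted as higher or lower when its scaled counts differ by at least 1.3-fold, and the share of all kept features past the same fold is given as background. Intervals in square brackets are exact 95% Clopper-Pearson intervals on the log2 scale and cover counting error only. Their median length to either side was 0.11 to 0.14 over the 4 comparisons. Neighbouring comparisons share a library, so their values are not independent.

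At E12.5 versus E11.5, 3 of 79 members were at least 1.3-fold higher (Cox7a1, Cox6b2 and Atp5g1), where the background was 18.5%, and 0 were at least 1.3-fold lower, where it was 18%. Past 2-fold, Cox7a1 alone was higher (background 7.09%) and no member was lower (background 5.9%). Among features with a mean CPM of at least 10, 1 of 75 members was at least 1.3-fold higher and 0 lower, against backgrounds of 15.3% and 11.6%. The median log2 fold change of the members was 0.03, with quartiles of −0.06 and 0.11, against −0.00 with quartiles of −0.26 and 0.25 for all features.

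At E13.5 versus E12.5, 1 member (Cox7a1) was at least 1.3-fold higher against a background of 9.67%, and 0 were lower against 6.93%. No member passed 2-fold in either direction, where the backgrounds were 1.63% and 0.793%, and none of the 75 with a mean CPM of at least 10 passed 1.3-fold, where they were 4.06% and 3.07%. The median of the members was −0.03 and that of all features 0.01.

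At E14.5 versus E13.5, 0 members were at least 1.3-fold higher against a background of 12.52%, and 1 (again Cox7a1) was lower against 7.64%. Past 2-fold there were none, against 4.1% and 1.01%, and past 1.3-fold at a mean CPM of at least 10 none, against 5.56% and 3.91%. The median was 0.04 for the members and −0.01 for all features.

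At E14.5 versus E12.5, the widest interval between libraries of gonad without mesonephros, 2 members were at least 1.3-fold higher (Cox7a1 and Ndufs5) against a background of 18%, and 1 (Atp5sl) was lower against 11.4%. The interval of Cox7a1, at a log2 fold change of 0.51 [−0.12, 1.12], included 0, so its higher value is within counting error. No member passed 2-fold, against 6.09% and 1.84%. At a mean CPM of at least 10 the counts were 0 higher and 1 lower, against 9.63% and 7.93%. The median was −0.00 for the members and 0.00 for all features. In each of the 4 comparisons the share of members past 1.3-fold was below the background in both directions.

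Complex I oxidises NADH through a flavin and a chain of iron-sulfur clusters held by 7 nuclear core subunits. Its 35 members had a median log2 fold change of 0.02, −0.02 and 0.05 in the 3 daily steps. The 7 core subunit genes were all above 0 at E12.5 versus E11.5, with a median of 0.09, and 1.3-fold was reached by none of them in any comparison. Ndufs1, the largest core subunit, had 61.8, 70.2, 71.1 and 65.5 scaled CPM, a log2 fold change of 0.18 [0.10, 0.27] at E12.5. Ndufv1, which binds the flavin, had 44.2, 45.2, 49.8 and 50.6, and was thus a little higher in the last 2 libraries than in the first 2. Ndufv2, Ndufs3, Ndufs7 and Ndufs8, further core subunits, had ranges of 1.06-fold to 1.11-fold.

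Accessory subunits surround the core of complex I, and the widest ranges were among these. Ndufb4, in the membrane arm (chr16:37647602-37654368, mm10, minus strand), had 466, 559, 677 and 379 counts, or 13.6, 17.7, 17.1 and 20.2 scaled CPM. It was lowest at E11.5 and highest at E14.5, with a log2 fold change of 0.38 [0.20, 0.56] at E12.5, just under the 1.3-fold threshold, and of 0.25 [0.06, 0.43] at E14.5 versus E13.5. Ndufs5 (chr4:123712710-123718186, minus strand) had 254, 218, 321 and 171 counts, or 7.44, 6.91, 8.09 and 9.12 scaled CPM. Its log2 fold change at E14.5 versus E12.5 was 0.40 [0.10, 0.70], just inside the threshold. Ndufa6, an accessory subunit of the matrix arm, was higher in the last 2 libraries (33.2 and 31.8 scaled CPM) than in the first 2 (25.3 and 27.4), with 0.28 [0.15, 0.40] at E13.5 versus E12.5. Ndufb2 had 13.2, 15.2, 17.4 and 16.7, also higher in the last 2 libraries than in the first 2.

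Some accessory genes of complex I went the other way or back and forth. Ndufa12, which completes the matrix arm late in assembly, had 17.7, 17.9, 16.6 and 14.2 scaled CPM and a log2 fold change of −0.33 [−0.55, −0.12] at E14.5 versus E12.5. Ndufb8 had 36.3, 31.7, 30.8 and 28.5 and −0.20 [−0.32, −0.07] at E12.5. The X-linked gene Ndufa1 was lowest at E12.5 with 9.96 scaled CPM, against 11.8 at E11.5 and 12.8 at E14.5. Ndufs6 was at 17.0, 18.8, 16.3 and 16.5 and had the lowest log2 fold change of all members at E13.5 versus E12.5, −0.21 [−0.37, −0.04].

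Complex II links the tricarboxylic acid (TCA) cycle to the respiratory chain. Sdha, its flavoprotein, had 123.0, 136.9, 141.8 and 140.3 scaled CPM and was lowest at E11.5, with 0.15 [0.09, 0.22] at E12.5. Sdhb, the iron-sulfur subunit, was instead highest at E11.5 at 40.1, followed by 36.4, 33.9 and 36.6. The membrane anchors were Sdhc, with 51.9, 52.3, 51.4 and 58.7, and Sdhd, with 40.9, 41.6, 38.3 and 39.3. None of these 4 genes reached a range of 1.3-fold.

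In complex III, Cyc1 (cytochrome c1) was at 50.7, 54.8, 54.7 and 54.5 scaled CPM and was lowest at E11.5. Uqcrfs1, the Rieske iron-sulfur protein, was at 51.8, 49.98, 47.8 and 44.4, lowest at E14.5, with −0.17 [−0.29, −0.05] at E14.5 versus E12.5. The core protein Uqcrc1 was at 86.7, 89.9, 83.8 and 86.3. Uqcrq, a small accessory subunit, had the highest log2 fold change of the complex at E14.5 versus E13.5, 0.21, as its level went from 23.2 to 26.8.

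ATP synthase has a soluble catalytic head, F1, and a membrane part with the c-ring. The 5 F1 genes differed in order. Atp5b was highest at E12.5, with 407.9, 475.6, 435.4 and 398.8 scaled CPM and log2 fold changes of 0.22 [0.19, 0.25], −0.13 [−0.16, −0.10] and −0.13 [−0.17, −0.09] in the 3 daily steps. Atp5a1, whose protein alternates with that of Atp5b in the head, was highest at E11.5, with 384.3, 354.0, 314.8 and 318.7. These were the members with the most counts (5976 to 17275 per library), which is why counting intervals as narrow as these exclude 0. Atp5c1, the central stalk, was at 93.2, 106.5, 104.4 and 106.8, and Atp5d and Atp5e, its partners, had ranges of 1.17-fold and 1.07-fold.

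The identical mature c-ring peptide is made from 3 genes. Atp5g1 (chr11:96072793-96075694, minus strand) had 1032, 1245, 1551 and 768 counts, or 30.2, 39.5, 39.1 and 41.0 scaled CPM. It was lower at E11.5 than in the other 3 libraries, which lay close together, with 0.39 [0.27, 0.51] at E12.5. Its partners were nearly level, Atp5g2 at 37.3, 38.6, 37.8 and 35.5 and Atp5g3 at 112.3, 117.7, 109.1 and 108.7. Within a library Atp5g1 made up 14.6%, 17.7%, 18.4% and 19.4% of the summed TPM of the 3 genes, Atp5g2 21.6%, 20.7%, 21.4% and 20.2%, and Atp5g3 63.7%, 61.7%, 60.2% and 60.4%. The exact 95% interval of the Atp5g1 share of counts was 15.9% to 17.8% at E11.5 and 19.2% to 21.2% at E12.5, and did not overlap.

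Among the supporting subunits of complex V, Atp5h of the peripheral stalk was at 53.3, 42.3, 41.6 and 43.5 scaled CPM and had the lowest log2 fold change of all members at E12.5 versus E11.5, −0.33 [−0.44, −0.23]. Atp5k, subunit e of the membrane part, was also highest at E11.5, with 23.3, 18.6, 17.3 and 20.6. It was the member with the highest log2 fold change at E14.5 versus E13.5, 0.26 [0.07, 0.44]. Atp5l, subunit g, was at 17.7, 15.0, 17.2 and 17.5, lowest at E12.5. A pseudogene entry of its family, Atp5l2-ps, had 147, 131, 167 and 109 counts beside 603, 472, 683 and 328 for Atp5l, and how reads were divided between these entries was not tested, so the level of Atp5l is uncertain. Atp5sl (chr7:25619359-25625551, plus strand), which is not a subunit and which RefSeq now names Dmac2, had 504, 477, 531 and 212 counts, or 14.8, 15.1, 13.4 and 11.3 scaled CPM. It was lowest at E14.5, with −0.42 [−0.66, −0.18] against E12.5.

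Exons of 13 members overlap an exon of another gene on the opposite strand, by 6 to 344 bases, among them Atp5j with Gabpa by 222 bases and Cox7a2 with LOC102638668 by 214. Whether reads were counted by strand is not given in the sources used here, so part of the reads of such a pair may belong to the partner. Ndufs7 overlaps the tRNA gene n-Tn7 on its own strand, by 74 bases or 6.79% of its exon length.

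In complex IV the ubiquitous members stayed within 1.3-fold over the 4 libraries, and the restricted isoforms Cox7a1 and Cox6b2 did not. Its 12 ubiquitous members had log2 fold changes from −0.18 to 0.25 at E12.5 versus E11.5 with a median of 0.07, from −0.13 to 0.10 at E13.5 versus E12.5 and from −0.14 to 0.08 at E14.5 versus E13.5. Cox6a1 was highest of these at E12.5, with 51.8, 61.5, 60.1 and 61.0 scaled CPM and 0.25 [0.15, 0.34]. Cox4i1, the ubiquitous isoform of subunit 4, was at 100.5, 107.6, 105.5 and 99.4. Ndufa4 and the X-linked gene Cox7b were lowest at E14.5, Ndufa4 at 54.9, 56.4, 54.2 and 49.0 and Cox7b at 38.1, 37.2, 34.3 and 31.3.

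Cox7a1, known as the heart and skeletal muscle isoform of subunit 7a (chr7:30184171-30186030, plus strand), had 22, 51, 127 and 43 counts, or 0.644, 1.62, 3.20 and 2.29 scaled CPM. It was lowest at E11.5 and highest at E13.5, with log2 fold changes of 1.31 [0.58, 2.12], 0.98 [0.51, 1.48] and −0.47 [−1.02, 0.03] in the 3 daily steps. The last of these intervals includes 0, so the lower value at E14.5 is within counting error. The ubiquitous isoform Cox7a2 stayed at 40.6, 45.9, 42.9 and 41.3 scaled CPM. Per length, Cox7a1 made up 3.16% (interval 1.999% to 4.73%), 6.77% (5.11% to 8.76%), 13.3% (11.3% to 15.6%) and 10.3% (7.59% to 13.47%) of the TPM of the pair. Summed scaled CPM of 5 smooth muscle markers was 56.2, 76.8, 127 and 172 at the same time points. This sum was highest at E14.5, and Cox7a1 at E13.5. The markers were split at E12.5 versus E11.5. Acta2 and Myh11 were higher, with log2 fold changes of 0.79 and 1.36. Tagln, Cnn1 and Actg2 were lower, with −0.30, −0.96 and −1.53. The germ cell and pregranulosa marker sums were, as Cox7a1 was, lowest at E11.5 and highest at E13.5. The part of smooth muscle or of these cell types in the Cox7a1 level was not tested.

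Cox6b2, known as the testis isoform of subunit 6b (chr7:4751792-4753094, minus strand), had 185, 276, 397 and 203 counts, or 5.42, 8.75, 10.01 and 10.8 scaled CPM. It was lowest at E11.5 and highest at E14.5, with 0.69 [0.42, 0.97], 0.19 [−0.03, 0.42] and 0.12 [−0.14, 0.36] in the daily steps, of which the last 2 are within counting error. Its partner Cox6b1 was highest at E11.5, with 46.0, 40.5, 39.0 and 39.5. The Cox6b2 share of the TPM of the pair was 8.94% (7.73% to 10.3%), 15.3% (13.6% to 17.0%), 17.6% (16.05% to 19.3%) and 18.6% (16.3% to 21.1%). The E11.5 interval lay below the other 3, which overlapped their neighbours. Summed scaled CPM of the 7 germ cell markers was 19.8, 297, 378 and 307. For the 5 Sertoli cell markers it was 86.4, 556, 476 and 521, and for the 5 Leydig cell markers 12.9, 163, 678 and 1125. All of these sums were lowest at E11.5, as Cox6b2 was, and so were the gonadal somatic, pregranulosa, erythroid and smooth muscle sums. The Leydig cell sum was also highest at E14.5, and so was the smooth muscle sum. The part of any of these cell types in the Cox6b2 level was not tested.

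**Figure D3:**
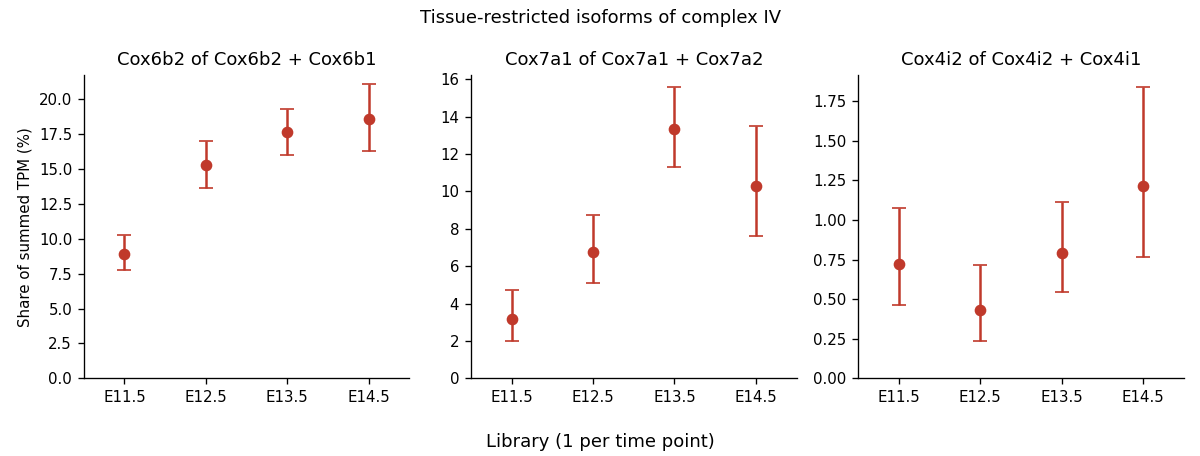
Share of the tissue-restricted isoform in the summed TPM of an isoform pair (percent, axes from 0, a scale of its own per panel) in each library, with exact 95% intervals for counting error. Cox6b2 goes from 8.94% to 18.6% and Cox7a1 from 3.16% to 13.3% and back to 10.3%, while Cox4i2 stays at or below 1.22%.

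The other 5 restricted isoforms were scarce. Cox4i2, an isoform induced by low oxygen in lung and other tissues, had 24, 14, 32 and 22 counts and made up 0.429% to 1.22% of the TPM of its pair with Cox4i1. It was 2.64-fold higher at E14.5 than at E12.5 by the ratio of scaled counts (interval 1.29 to 5.58), with the E12.5 library the lowest of the 4. Cox7b2, known from testis, had 0, 6, 6 and 12 counts, and Cox8c, also known from testis, 0, 7, 2 and 4. Against a floor of 3 counts in the E11.5 library, and with the counts at E12.5 taken as measured, Cox7b2 was at least 2.17-fold higher and Cox8c at least 2.53-fold higher at E12.5. The exact counting intervals of these ratios, which also cover the error at E12.5, began at 1.28 for Cox7b2 and 1.56 for Cox8c. The Cox7b2 share of its pair was 0 at E11.5, which at the floor of 3 counts allows up to 0.424% (upper end of the exact interval 0.521%), then 0.933%, 0.807% and 3.63% (1.90% to 6.22% at E14.5). Cox6a2, the heart and muscle partner of Cox6a1, had 0, 0, 1 and 4 counts, and Cox8b, of muscle and brown fat, 0, 1, 0 and 0. At the same floor the counts of 0 for Cox8b allow a share in its pair with Cox8a of up to 0.281% at E11.5 and 0.533% at E14.5, where the exact intervals ended at 0.345% and 0.656%. Those for Cox6a2 allow a share of up to 0.137% at E11.5 and 0.125% at E12.5, with exact intervals that ended at 0.169% and 0.154%.

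The sequence around the start sites was not used to choose the genes. RefSeq promoter windows, 250 bases before to 50 bases after the start on GRCm38.p6, were matched to 69 of the 84 members, 3 of them through an older symbol. For 28 members no window had its start at the outermost exon base of the annotation used for counting. The difference was 2 bases for Ndufb8 and 328 for Ndufs7, and larger for some, such as Atp5f1. Windows of these members may not cover the start of the transcripts counted. Motifs were searched on both strands as exact letters, NRF1 (nuclear respiratory factor 1) as GCGCNTGCG, ETS (the family of GABP, nuclear respiratory factor 2) as CCGGAAGT, YY1 as AAGATGGCG, and the general promoter elements CCAAT and TATAAA. No member window had overlapping matches of different motifs, and in 6 windows matches of the same motif overlapped, since the NRF1 and CCAAT letters can match on both strands of 1 stretch.

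The NRF1 letters were found in 24 of 69 members (34.8%) against 7.12% of the 27025 genes with a window. The YY1 letters were found in 8 (11.6% against 1.64%) and the ETS letters in 5 (7.25% against 4.31%). At least 1 of these 3 was present in 33 members (47.8%) against 12.0% of all genes. CCAAT was about as frequent in both, 44.9% and 41.1%, and TATAAA was found in 10.1% and 15.7%. The median GC content of the windows was 57.3% for members and 52.8% for all genes. By complex, the NRF1 letters were in 9 of 31 windows of complex I, 2 of 3 of complex II, 3 of 5 of complex III, 1 of 14 of complex IV and 8 of 14 of complex V. These are matches of letters, not shown binding sites.

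The following 4 windows show members with several matches of this kind. Sdha and Ndufb4 have 3 NRF1 matches and 1 CCAAT match each, Uqcrc1 has 3 NRF1 matches of which 2 overlap, and Ndufs6 has an NRF1, a YY1 and a CCAAT match. Capitals mark every match to one of the 5 motifs, and each sequence is written from 5′ to 3′ on the gene's own strand.
Sdha, chr13:74350191-74350490, minus strand: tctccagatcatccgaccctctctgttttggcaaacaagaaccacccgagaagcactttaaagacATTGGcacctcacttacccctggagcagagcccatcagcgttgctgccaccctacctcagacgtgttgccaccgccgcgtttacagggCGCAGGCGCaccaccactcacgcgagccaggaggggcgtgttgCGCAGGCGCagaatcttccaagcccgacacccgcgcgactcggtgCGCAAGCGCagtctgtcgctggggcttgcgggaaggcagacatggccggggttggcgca
Uqcrc1, chr9:108936398-108936697, plus strand: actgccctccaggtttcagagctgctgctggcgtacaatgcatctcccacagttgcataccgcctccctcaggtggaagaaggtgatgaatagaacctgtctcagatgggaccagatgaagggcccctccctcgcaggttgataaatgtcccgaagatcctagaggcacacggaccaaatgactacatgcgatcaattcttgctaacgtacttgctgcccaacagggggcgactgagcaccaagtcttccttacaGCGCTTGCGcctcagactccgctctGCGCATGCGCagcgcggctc
Ndufb4, chr16:37654319-37654618, minus strand: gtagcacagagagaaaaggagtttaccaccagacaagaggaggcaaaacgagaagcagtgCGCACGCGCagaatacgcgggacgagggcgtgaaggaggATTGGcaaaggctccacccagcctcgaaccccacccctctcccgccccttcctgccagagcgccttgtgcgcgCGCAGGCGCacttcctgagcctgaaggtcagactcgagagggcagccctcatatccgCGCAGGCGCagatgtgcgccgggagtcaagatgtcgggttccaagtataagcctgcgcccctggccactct
Ndufs6, chr13:73328433-73328732, minus strand: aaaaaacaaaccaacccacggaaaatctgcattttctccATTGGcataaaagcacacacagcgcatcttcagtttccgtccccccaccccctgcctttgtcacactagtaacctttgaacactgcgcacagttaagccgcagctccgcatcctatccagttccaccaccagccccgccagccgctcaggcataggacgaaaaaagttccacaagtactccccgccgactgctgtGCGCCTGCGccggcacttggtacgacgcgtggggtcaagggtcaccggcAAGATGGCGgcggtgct

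In these 4 genes the scaled levels spanned 1.15-fold (Sdha), 1.07-fold (Uqcrc1), 1.48-fold (Ndufb4) and 1.15-fold (Ndufs6) over the libraries, so windows with NRF1 letters occurred both in level genes and in the widest-ranging ubiquitous subunit. None of the 4 restricted isoforms with a window (Cox6b2, Cox7a1, Cox7b2 and Cox8b) held NRF1, ETS or YY1 letters. In complex IV as a whole 2 of 14 windows held such letters (14.3%), against 12.0% of all promoters. The windows of Cox7a1 and Cox6b2, which had the widest ranges, are set beside those of their ubiquitous partners, with capitals as before.
Cox7a1, chr7:30183921-30184220, plus strand: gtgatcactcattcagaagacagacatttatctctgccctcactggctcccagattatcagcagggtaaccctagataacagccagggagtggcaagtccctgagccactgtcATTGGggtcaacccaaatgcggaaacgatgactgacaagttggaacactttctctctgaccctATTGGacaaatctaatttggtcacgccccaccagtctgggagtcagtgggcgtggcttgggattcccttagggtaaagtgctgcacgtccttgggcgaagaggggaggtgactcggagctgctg
Cox7a2, chr9:79759804-79760103, minus strand: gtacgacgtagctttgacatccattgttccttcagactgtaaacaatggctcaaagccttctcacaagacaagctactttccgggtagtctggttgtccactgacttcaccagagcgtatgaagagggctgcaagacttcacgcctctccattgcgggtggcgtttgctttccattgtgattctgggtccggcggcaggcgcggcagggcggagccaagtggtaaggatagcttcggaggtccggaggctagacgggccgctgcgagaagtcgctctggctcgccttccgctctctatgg
Cox6b2, chr7:4753045-4753344, minus strand: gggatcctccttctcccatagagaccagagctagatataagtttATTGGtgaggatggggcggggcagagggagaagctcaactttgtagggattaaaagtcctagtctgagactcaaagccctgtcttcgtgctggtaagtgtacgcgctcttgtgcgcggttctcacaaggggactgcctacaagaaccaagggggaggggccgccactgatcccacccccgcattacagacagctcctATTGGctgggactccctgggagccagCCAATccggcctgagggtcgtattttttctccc
Cox6b1, chr7:30626065-30626364, minus strand: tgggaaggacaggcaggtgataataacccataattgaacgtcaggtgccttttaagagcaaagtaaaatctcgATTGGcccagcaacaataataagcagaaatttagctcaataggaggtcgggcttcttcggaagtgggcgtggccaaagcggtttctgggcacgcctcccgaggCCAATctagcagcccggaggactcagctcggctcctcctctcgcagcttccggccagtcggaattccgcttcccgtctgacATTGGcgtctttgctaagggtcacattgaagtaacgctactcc

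All the capitals in these 4 windows are CCAAT letters on one strand or the other, 2 matches in Cox7a1, 3 in Cox6b2, 3 in Cox6b1 and none of any motif in Cox7a2. Both partners thus also lacked NRF1, ETS and YY1 matches, whereas Cox8a, the ubiquitous partner of Cox8b, had 2 ETS matches.

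The factors named by those motifs and other regulators of mitochondrial biogenesis were a list of 12 genes, all measured. Their median log2 fold change was 0.01 at E12.5 versus E11.5, −0.12 at E13.5 versus E12.5 and −0.09 at E14.5 versus E13.5. Nrf1 was at 49.1, 47.7, 46.1 and 39.7 scaled CPM, Gabpa, the DNA-binding subunit of GABP, at 94.7, 95.7, 95.5 and 88.6, and Yy1 at 97.2, 88.0, 85.9 and 81.4. All 3 were lowest at E14.5 and none passed 1.3-fold in a daily step. Each of the coactivators passed 1.3-fold in 1 daily step. Pprc1 was 0.48 higher on the log2 scale at E12.5, going from 70.6 to 98.6 scaled CPM. Ppargc1b was lower at E12.5 with −0.63, from 12.0 to 7.77, and Ppargc1a was lower at E13.5 with −0.46, from 10.2 to 7.41. At E12.5 these were 1 of 12 genes higher and 1 of 12 lower, against a background of 18.5% and 18%. At E13.5 it was 1 of 12 lower, against 6.93%, and 0 higher, against 9.67%. Tfam, which packages and transcribes mitochondrial DNA, was at 37.9, 38.6, 38.4 and 33.5. All 12 regulators were below 0 at E14.5 versus E12.5, as were 7942 of all 15897 features, with a median of −0.15, where the members had a median of −0.00.

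Assembly factors, which build the complexes without staying in them, were kept for 40 genes. Their medians lay as close to 0 as those of the members, 0.01, 0.01 and −0.01 in the 3 daily steps, with quartiles somewhat further apart. At least 1.3-fold higher at E12.5 were Bcs1l (complex III), Cox18 and Coa6 (complex IV), and lower were Tmem126b (complex I) and Surf1 (complex IV), 3 and 2 of 40 against a background of 18.5% and 18%. No factor passed at E13.5, where the background was 9.67% higher and 6.93% lower. At E14.5 versus E13.5, Ecsit was higher with a log2 fold change of 0.48 and Ndufaf3 lower with −0.67, both for complex I, with 53 counts behind Ndufaf3 at E14.5 and a background of 12.52% higher and 7.64% lower. A list of 8 measured genes of the respiratory chain outside the name pattern or close to it, of which Cox7a2l is also a member, had medians of −0.05, 0.12 and −0.07. In each daily step 1 of these 8 was at least 1.3-fold higher, where the background was 18.5%, 9.67% and 12.52%. These were Coq10b at E12.5, Coq10a at E13.5 and Ndufa4l2 at E14.5. Ndufa4l2, a relative of Ndufa4 known to be induced by low oxygen, had 36 to 51 counts per library.

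The pathways that feed the respiratory chain or run beside it were compared in the same way. The 18 genes of the TCA cycle and pyruvate dehydrogenase had medians of 0.16, 0.00 and −0.10 in the 3 daily steps. Of these, 15 of 18 were above 0 at E12.5, as were 7850 of all 15897 features, and Idh3a, a subunit of isocitrate dehydrogenase, alone passed 1.3-fold (background 18.5% higher), going from 28.1 to 37.8 scaled CPM. None of the 18 passed it in the later steps, where the background was 9.67% and 12.52% higher and 6.93% and 7.64% lower. At E14.5 versus E13.5, 15 of 18 were below 0, as were 8146 of all 15897 features. Against E12.5, 17 of 18 were below 0 at E14.5, as were 7942 of all features, with a median of −0.07.

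The 18 genes of the glycolysis list had medians further from 0 than the members in 3 of the 4 comparisons. The list includes the glucose transporter genes Slc2a1 and Slc2a3 and the lactate dehydrogenase genes Ldha and Ldhb. Their median was −0.24 at E12.5 versus E11.5, −0.23 at E13.5 versus E12.5, 0.03 at E14.5 versus E13.5 and −0.25 at E14.5 versus E12.5. At E12.5, Pfkl, Tpi1, Gapdh, Pgk1 and Ldha were at least 1.3-fold lower and Hk1 and Pfkp higher, which is 5 and 2 of 18 against 18% and 18.5% of all features. At E13.5, 16 of 18 were below 0, as were 7765 of all 15897 features, with Hk1, Pfkp, Pgk1, Eno1, Pkm and Ldhb at least 1.3-fold lower and Aldoc at least 1.3-fold higher, where the background was 6.93% and 9.67%. Pgk1, which makes the first ATP of glycolysis, went from 96.0 to 67.4, 45.8 and 46.7 scaled CPM, and Pkm, which makes the last, from 454.3 to 370.6, 279.9 and 263.3. Both had their highest level in the library that held mesonephros, and both were lower at E13.5 than at E12.5. The part of dissection or of cell types in these levels was not tested. Pfkp, a phosphofructokinase gene, instead peaked at E12.5, with 12.2, 22.6, 11.2 and 6.93.

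Within a library, the summed TPM of the members was 3.43, 4.03, 4.98 and 5.07 times that of the glycolysis list. The same sum relative to the TCA list was 7.81, 7.38, 7.35 and 7.98, with no order in time. Such ratios do not depend on the scaling between libraries. The summed TPM of the glycolysis list relative to the TCA list was 2.28, 1.83, 1.48 and 1.57, lower in each of the last 3 libraries than at E11.5. The cell type markers given above differed between the same libraries, and their part in these ratios was not tested.

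**Figure D4:**
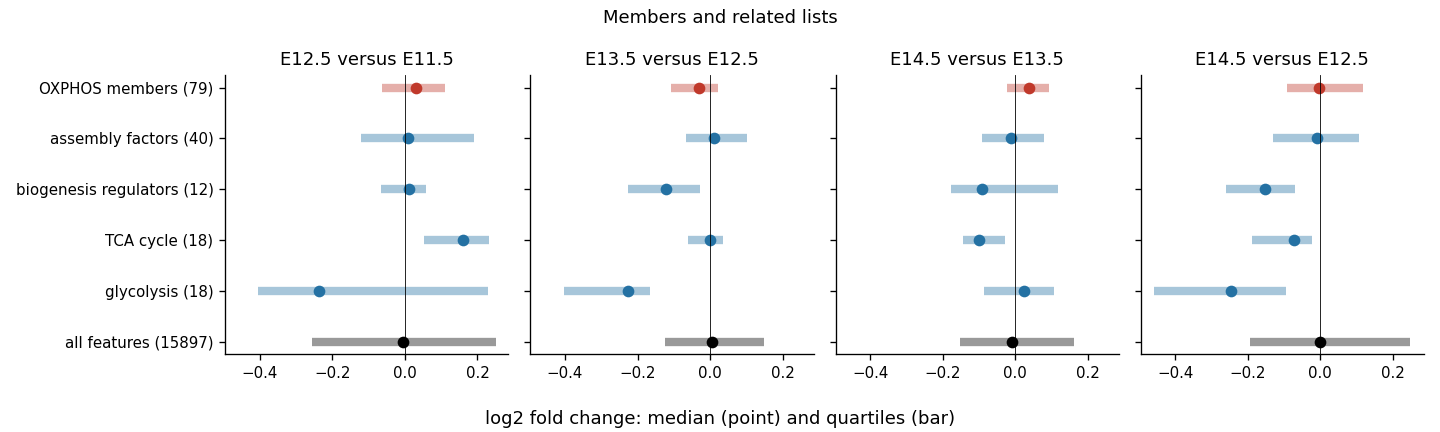
Log2 fold change of the OXPHOS members and of related gene lists in the 4 comparisons, with a point at the median and a bar from the lower to the upper quartile. The number of genes kept is in parentheses. The members' medians lie between −0.03 and 0.04, and the glycolysis median is at −0.24, −0.23, 0.03 and −0.25.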

How the data were processed

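Members and lists were chosen with earlier results of these data known. The authors depleted rRNA, added UMIs, aligned to mm10 with STAR, removed duplicates with UMI-tools and counted reads per gene with featureCounts, as given in the study's methods. Each deposited table holds 40999 features with the authors' read counts, RPKM and TPM. The deposited counts are deduplicated and not normalised, the TPM deposited by the authors is recomputable from counts and exon lengths (largest relative deviation 5e-16), and the deposited RPKM was not used. The study describes its genes as identified from uniquely mapped reads, and tool versions are not given in the sources used here.

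Samples were grouped by the time point in their labels, 1 library each, from 1 RNA pool. Counts were scaled with TMM in edgeR 4.0.16 under R 4.3.3, with factors of 1.09, 1.23, 1.25 and 0.595 from E11.5 to E14.5. Features with a mean CPM of at least 1 were kept. Log2 fold changes used a prior count of 0.5, with exact Clopper-Pearson 95% intervals computed in Python 3.11.15 with scipy 1.17.1. These intervals and the floors cover counting error only. With 1 library per time point, no dispersion and no test were fitted. A count of 0 was bounded by a floor of 3 counts per library, 0.0756 to 0.160 scaled CPM.

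Named genes were the complex I core, complex II, Cyc1, Uqcrfs1, Uqcrc1 and Uqcrc2, the F1 and c-ring genes, the isoform pairs of complex IV, the 5 members with the highest mean TPM, and the 5 members with the highest and lowest log2 fold change in each comparison; 1 of these is not reported here. The members with a range past 1.3-fold, Ndufa13, members with overlapping exons and genes named by a list were added after their values were seen. Alternatives were DESeq2 1.42.0 size factors, total counts, TMM without rRNA and the 10 most abundant features of each library, other filters and prior counts, and the deposited TPM. The background at a mean CPM of at least 10 was added after seeing the data. The scripts were tested on simulated data. The subunit genes of the mitochondrial genome were not analysed here.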

Additional observations from a re-analysis of the deposited data

How the results depend on the processing

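No paired analysis was possible because each time point has 1 library, and for the same reason no library could be left out of a group. Under DESeq2 size factors, TMM without rRNA and the most abundant features, and a prior count of 2, every count of members past 1.3-fold stayed within 1.5 times the value in the report, and no complex, list or named gene changed sign beyond its counting error. The members' median relative to all features lay between −0.097 and 0.045 in all 4 comparisons and under all 7 alternatives, and turned from 0.036 to −0.014 at E12.5 without the filter.

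Without the filter on low counts, 6 members were higher and 1 lower at E12.5, 3 higher and 2 lower at E13.5, 5 higher at E14.5 versus E13.5, and 5 higher and 2 lower at E14.5 versus E12.5, since the 5 scarce isoforms of complex IV enter. With at least 10 counts in both libraries, 1 was lower at E12.5, 2 higher at E13.5 and 1 higher at E14.5 versus E13.5, as Cox4i2 enters. Scaled by total counts, 6 were higher at E12.5, all 79 were lower at E14.5 in both comparisons and 0 were higher against E12.5. With the deposited TPM, 27 were higher at E12.5 and 2 at E13.5, and again 79 were lower at E14.5 in both comparisons and 0 higher against E12.5. Both settings move the median of all features, by −1.08 and −1.60 on the log2 scale at E14.5 versus E13.5 and by 0.17 and 0.29 at E12.5 versus E11.5; both count rRNA in the total.

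Under total counts these turned sign at E14.5. Against E13.5 the median log2 fold change of the markers was −0.29 (Leydig cell), −0.61 (macrophage) and −0.66 (smooth muscle), and Cox4i2 was at −0.52. Against E12.5, the tissue-restricted isoforms had a median of −0.64, the macrophage markers −0.65, Cox7a1 −0.54 and Ndufs5 −0.65. With the deposited TPM, Cox4i2 was at −1.02 against E13.5 and −0.092 against E12.5, Cox7a1 at −0.98 and Ndufs5 at −1.10. Each of these values was above the shift of the median of all features under the same setting.

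Shares by raw counts in place of TPM, which give long genes more weight, were 24.5%, 24.4%, 25.1% and 25.4% for complex I in order of time, 6.71%, 6.81%, 7.003% and 7.24% for complex II, 10.7%, 10.5%, 10.6% and 10.8% for complex III, 17.3%, 17.8%, 18.2% and 18.03% for complex IV, 40.2%, 40.0%, 38.6% and 38.1% for complex V, and 0.533%, 0.539%, 0.517% and 0.475% for Atp5s and Atp5sl. Depth limits the scarce isoforms most, with 0 to 32 counts per library.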
